A study of Arabidopsis thaliana with 4 samples.

Results

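EC1.1 (AT1G76750) and EC1.5 (AT5G64720) are 2 of the 5 EGG CELL 1 genes of Arabidopsis thaliana, and each was read by 1 array probe whose platform annotation names that gene alone. They are 2 of 5303 named genes measured on at least 3 arrays. The arrays compared total RNA of inflorescences of the mutant apetala3 with total RNA of wild-type inflorescences, with 1 RNA in each channel of 4 arrays. Arrays 1 and 3 carried the apetala3 RNA in channel 1, and arrays 2 and 4 carried it in channel 2. The labels give no allele, strain, plant age or growth stage. Nothing in them ties an array to its own plants or RNA extract, and the spread between arrays may therefore be technical. Both genes were chosen with their values on these arrays known, so their ratios are given as a description without a test.

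EC1 proteins are small, cysteine-rich proteins that the egg cell stores and secretes when sperm cells arrive at the ovule. In Arabidopsis they act on the sperm cells, where the fusion protein HAP2 (also called GCS1) is then moved to the cell surface, and the family's members act redundantly. The egg cell lies in the embryo sac inside the ovule, and ovules form in carpels. The MADS-box factor APETALA3 is needed for petal and stamen identity, and flowers of apetala3 mutants form carpelloid organs in place of stamens and sepals in place of petals.

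Each value below is a log2 ratio, apetala3 over wild type, within an array. A value of 1 is 2-fold higher in apetala3. The files give no signal for either genotype alone, so the level of an EC1 transcript was not measured, only its ratio. Which channel was the numerator is not stated in the labels. The direction is called likely, because with it the tapetum and pollen wall list, genes of the stamen, had a median of -3.11. Those genes set the direction and so cannot support it, and with the other numerator every sign below turns. AP3 itself was not analysed here, as 0 probes name it alone, so the labels were not checked against the mutated gene. Precision is limited by having 4 arrays.

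EC1.1 was higher in apetala3 on each of the 4 arrays. Its log2 ratios were 0.79, 1.32, 1.26 and 2.002 on arrays 1 to 4. Array 4 gave the highest value and array 1 the lowest, while arrays 2 and 3 lay close together although they held the mutant RNA in opposite channels. The mean was 1.34 ± 0.50 (SD, n = 4 arrays), which is 2.54-fold, with single arrays between 1.73-fold and 4.01-fold. In all, 36 named genes, 0.679% of the 5303, had a higher mean. As EC1.1 was chosen with its ratios known, that rank is no separate result.

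EC1.5 was also higher in apetala3 on every array, with a lower mean. Its log2 ratios were 0.85, 1.43, 0.39 and 1.22 on arrays 1 to 4. Here array 3 was the lowest and array 2 the highest. The mean was 0.97 ± 0.45 (SD, n = 4 arrays), or 1.96-fold, with single arrays between 1.31-fold and 2.69-fold. A higher mean was found for 96 named genes, 1.81% of them, a rank with the same limit as that of EC1.1.

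The EC1.1 and EC1.5 ratios overlapped. EC1.1 minus EC1.5 was slightly below 0 on arrays 1 and 2 (-0.06 and -0.11), and arrays 3 and 4 gave 0.88 and 0.79. The mean difference was 0.37 ± 0.53 (SD, n = 4 arrays). EC1.1 was the higher on 2 of the 4 arrays, so the order of the 2 genes differed between arrays, and the difference was not tested. Neither gene had a value at the 100-fold limit where the deposited ratios end, and none was missing.

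The remaining members of the family, EC1.2, EC1.3 and EC1.4, were represented by 3 probes that list several EC1 genes and no other gene. Each of these probes also shares at least 1 listed gene with another, and 2 of them list EC1.1 or EC1.5, so they are not independent of the probes above or of each other. No value on them can be given to a single gene. The probe listing EC1.2, EC1.3 and EC1.5 had ratios of 0.43, 0.94, 1.09 and 1.08 on arrays 1 to 4, with a mean of 0.89 ± 0.31 (SD, n = 4 arrays). The probe listing EC1.2, EC1.3 and EC1.4 had 0.36, 0.53, 0.24 and 0.95, with a mean of 0.52 ± 0.31. The probe listing EC1.1 and EC1.4 had 0.60, 0.74, 0.11 and 0.63, with a mean of 0.52 ± 0.28. All 3 were above 0 on every array, and each had a lower mean than EC1.1 and EC1.5. The probe listing EC1.1 and EC1.4 was lower than EC1.1 on each array, by the most on array 4, although EC1.1 is one of its listed genes. Across all genes and probes measured on 4 arrays, 30.5% were above 0 on every array, so a positive sign on each array is common on these arrays.

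**Figure D1:**
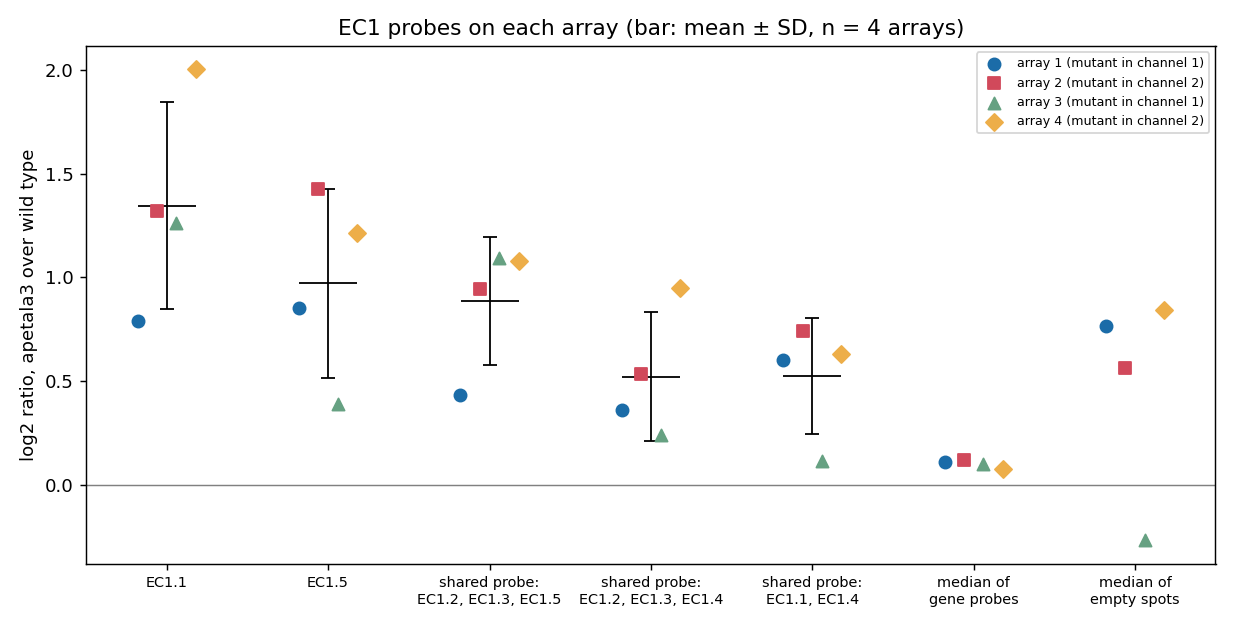
Log2 ratios of apetala3 over wild type (y axis) for the 5 probes that list EC1 genes, with the median of all gene probes and of the empty spots on each array at the right. Each symbol is 1 array, and the bars are the mean ± SD over 4 arrays. All 5 probes lie above 0 on every array, EC1.1 between 0.79 and 2.002, and the empty spots lie below 0 only on array 3, at -0.27.

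The arrays carry spots without any probe, and these had ratios away from 0. Their medians were 0.76, 0.56 and 0.84 on arrays 1, 2 and 4 and -0.27 on array 3, while gene probes had medians of 0.08 to 0.12. On array 1, EC1.1 and EC1.5 stood 0.03 and 0.09 above the median of the empty spots. The gap for EC1.1 was 0.76, 1.53 and 1.16 on arrays 2, 3 and 4, and for EC1.5 it was 0.86, 0.66 and 0.37. On arrays 1 to 4, 48.4%, 18.8%, 0.365% and 24.3% of the measured empty spots were above EC1.1. For EC1.5 the shares were 42.5%, 16.5%, 23.7% and 34.9%. EC1.1 thus stood clear of nearly all empty spots on array 3 alone. These shares leave out many spots, as only 273, 170, 274 and 152 of 424 empty spots were measured on arrays 1 to 4. Among the 179 empty spots measured on at least 3 arrays, 23 (12.8%) had a mean at or above that of EC1.1 and 41 (22.9%) a mean at or above that of EC1.5. Whether a shared offset of weakly hybridised spots has a part in the EC1 ratios was not tested, since the deposited values hold no intensities.

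**Figure D2:**
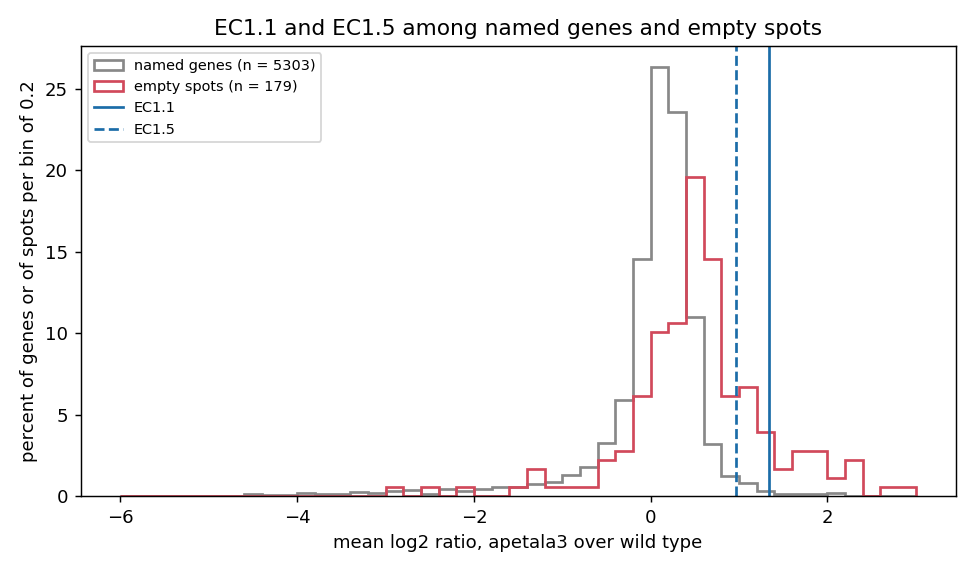
Distribution of mean log2 ratios of apetala3 over wild type (x axis) as the percent of genes or spots in bins of 0.2 (y axis), for 5303 named genes and for 179 of 424 empty spots. The vertical lines mark EC1.1 at 1.34 and EC1.5 at 0.97, which were chosen with these ratios known. Both lie in the upper tail of the named genes, where 0.679% and 1.81% lie higher. They also lie within the range of the empty spots, where 12.8% and 22.9% lie as high or higher.

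The arrays were also compared by the channel that held the mutant RNA. EC1.1 and EC1.5 were chosen with their values on these same arrays known, so this contrast is not independent of the choice. Their intervals and limma p-values below are therefore given as a description and cannot decide whether the channel mattered. EC1.1 had a mean of 1.03 where channel 1 held the mutant RNA and of 1.66 where channel 2 held it. The difference, channel 1 minus channel 2, was -0.63 ± 0.33 (SE, 95% interval -1.51 to 0.24, limma adjusted p = 0.753 over all genes and probes). EC1.5 had means of 0.62 and 1.32, and its difference was -0.70 ± 0.25 (SE, 95% interval -1.36 to -0.04, limma adjusted p = 0.728). The interval of EC1.5 left out 0 before adjustment, and 6.78% of all genes and probes had an unadjusted limma p under 0.05 for this difference. Past the adjusted threshold were 0% of 25588, and the smallest limma adjusted p was 0.645. The 3 shared EC1 probes had differences of -0.25, -0.44 and -0.33. All 5 EC1 probes therefore gave smaller ratios with the mutant in channel 1, but they share listed genes and are not independent. The median difference over all genes and probes was -0.01. No EC1 difference passed the threshold, and with 2 arrays on each side the intervals allow differences as large as the ratios themselves. Array 3, on which the empty spots were lowest, held the mutant RNA in channel 1. So did array 1, where the median of the empty spots was 0.76, above the 0.56 of array 2.

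**Figure D3:**
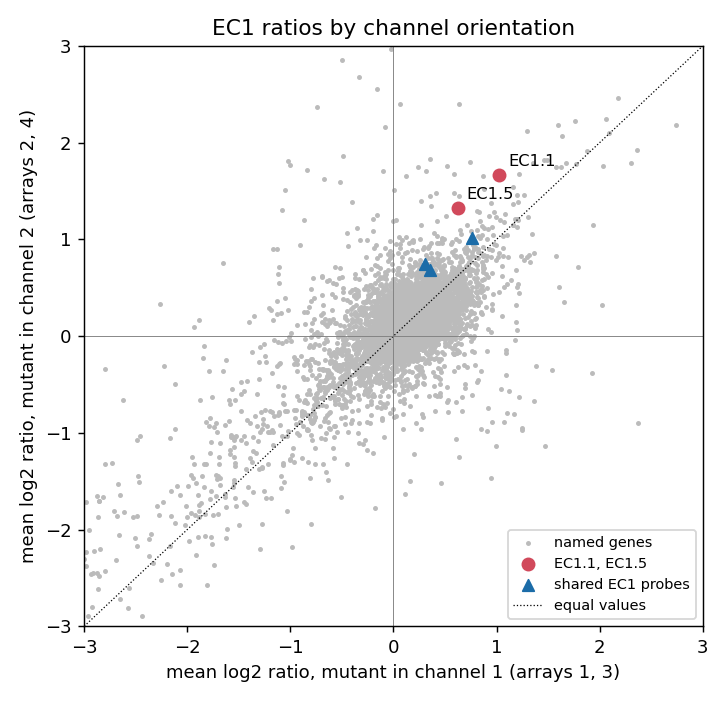
Mean log2 ratio of apetala3 over wild type on arrays 1 and 3 (x axis) against arrays 2 and 4 (y axis) for named genes measured on all 4 arrays, EC1.1 and EC1.5, and the 3 shared EC1 probes. The dotted line marks equal values; 105 of 5144 genes lie outside the axes, which end at 3 on either side. All 5 EC1 points lie above the dotted line and to the right of 0.

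Other genes of the egg cell were sparsely covered. Of 10 genes on an egg cell list (the 5 EC1 genes, the RWP-RK factors RKD1 and RKD2, and the homeobox genes WOX2, WOX8 and WOX9), only EC1.1 and EC1.5 were measured by name. As background, among all named genes 9.09% were called higher at a limma adjusted p under 0.05 and 8.41% lower, and among all genes and probes 8.43% were higher and 10.1% lower. The split moved with centring, since the median over all genes and probes was 0.11. With each array centred on its median, 1065 genes and probes were higher and 2905 lower, against 2158 and 2579 as deposited, and the means of EC1.1 and EC1.5 were 1.24 and 0.87.

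The neighbouring cells of the embryo sac were represented by 3 named genes, and none passed the threshold. FER, a receptor kinase that acts in synergids when the pollen tube arrives and is also made in many other tissues, had ratios of 0.07, -0.0025, 0.07 and 0.07 on arrays 1 to 4 (mean 0.05 ± 0.09, SE, limma adjusted p = 0.689). It was the 1 measured gene of 8 on the synergid and pollen tube reception list. Of 9 central cell genes, 2 were measured. AGL61, a type I MADS-box factor of the central cell, had 1.81, 0.07, 0.31 and 0.35 (mean 0.63 ± 0.30, SE, limma adjusted p = 0.191), and without array 1 its mean was 0.24. DME, a DNA glycosylase that removes methylation in the central cell, had 0.08, 0.17, 0.05 and 0.10 (mean 0.10 ± 0.09, SE, limma adjusted p = 0.443). FER and DME thus lay near the median of all named genes, which was 0.14. The sperm cell and gamete fusion list, which holds HAP2, had 0 of 7 genes measured by name.

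The tissues around the embryo sac gave 1 gene that rose and 1 that fell. CES (HAF), a bHLH gene active in the transmitting tract, was the 1 measured gene of 22 on the carpel list and had ratios of 1.75, 2.25, 1.53 and 1.88 on arrays 1 to 4. Its values were close together and lay above those of EC1.5 on each array. They averaged 1.85 ± 0.14 (SE, limma adjusted p = 0.00117), or 3.61-fold higher in apetala3. A further 6 probes listing several genes, all on the carpel list, had a median of 0.78. Of these, 4 were called higher and 0 lower, against 8.43% and 10.1% of all genes and probes. Some of these probes list the same genes, so they are not independent. Of 10 ovule genes, 2 were measured. INO, a regulator of the outer integument of the ovule, had ratios of -0.06, 0.40, 0.18 and 0.29 (mean 0.20 ± 0.11, SE, limma adjusted p = 0.243). Its 3 probes had means of 0.20, 0.48 and -0.06. SPL, which starts sporogenesis in ovules and in anthers, fell to -0.49 ± 0.11 (SE, limma adjusted p = 0.0337), with values of -0.68, -0.39, -0.60 and -0.30. That call was lost without array 1, 2 or 3, where the limma adjusted p lay between 0.102 and 0.154.

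Ordered by mean ratio, the named genes of carpel, ovule and embryo sac ran from CES (1.85) through EC1.1 (1.34), EC1.5 (0.97), AGL61 (0.63), INO (0.20), DME (0.10) and FER (0.05) to SPL (-0.49). The range of EC1.1 over the arrays overlapped those of CES above and of EC1.5 below. The range of EC1.5 overlapped that of INO, with a lowest value of 0.39 against a highest of 0.40. AGL61, from 0.07 to 1.81, overlapped CES, EC1.1, EC1.5, INO, DME and FER. The ranges of INO, DME and FER also overlapped one another. EC1.1 was above INO, DME and FER on every array, and so was EC1.5. For EC1.5 this holds with the probes of INO averaged. The INO probe with a mean of 0.48 read 0.52 on array 3, above the 0.39 of EC1.5. The differences in ratio between these genes include the values that chose EC1.1 and EC1.5, so they were not tested.

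Most measured genes of the stamen were lower in apetala3, but the direction of all ratios was set by these same genes. Their fall is therefore no independent result. Of 15 genes of the tapetum and pollen wall, 5 were measured by name, 4 fell and 0 rose, with a median of -3.11 against 0.14 over all named genes. Among all named genes, 8.41% were called lower and 9.09% higher. ATA27, an anther beta-glucosidase, averaged -4.10 ± 0.61 (SE, limma adjusted p = 0.0109), but its 2 probes had means of -6.08 and -0.65, and with limit values kept it was at -2.45 and not past the threshold. SWEET8, a sugar transporter of pollen wall formation, averaged -3.97 ± 0.36 (SE, limma adjusted p = 0.00204). SHT, a tapetal enzyme of spermidine conjugates, averaged -3.11 ± 0.46 (SE, limma adjusted p = 0.0108), a call lost without array 2 (limma adjusted p = 0.0618). ATA20, an anther gene, was at -2.76, while EMS1, a receptor kinase of tapetum formation, was at 0.07 and not past the threshold. In whole inflorescences, a change in the number of cells of a type and a change in RNA per cell cannot be told apart. The part of organ makeup in the EC1 ratios was not tested.

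**Figure D4:**
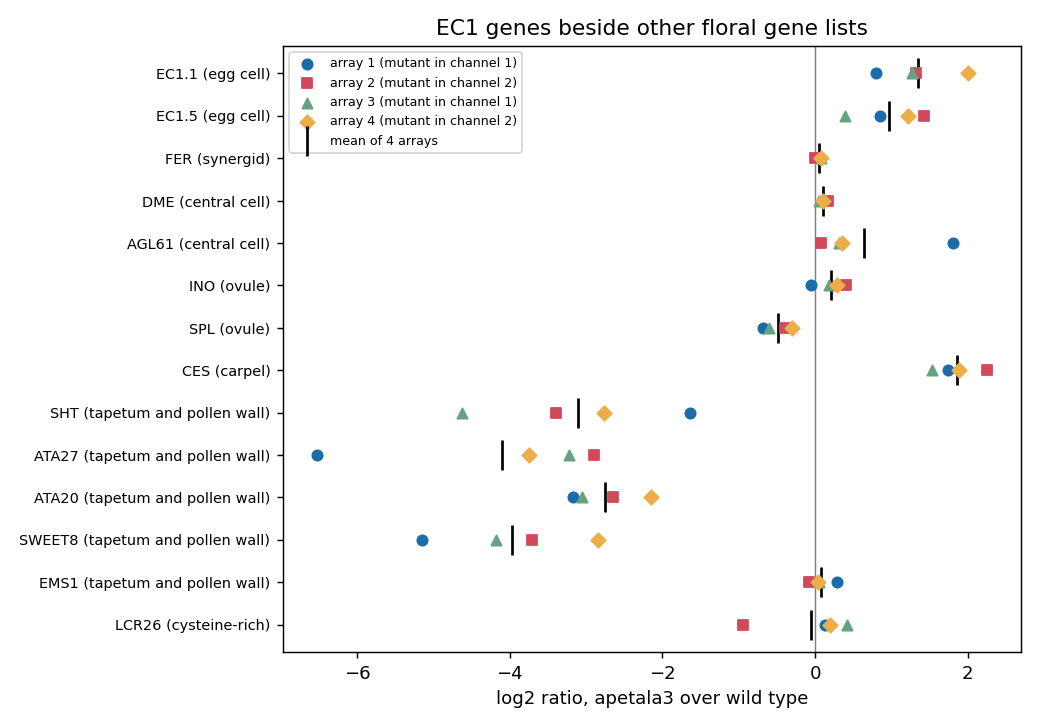
Log2 ratios of apetala3 over wild type (x axis) on each of 4 arrays for EC1.1, EC1.5 and every other measured gene of the floral lists, with the list in parentheses; each symbol is 1 array and the vertical tick is the mean. EC1.1, EC1.5, CES, AGL61 and DME lie above 0 on every array, AGL61 with 1 array far above its others, FER, DME and INO lie near 0, and 4 of 5 tapetum and pollen wall genes lie below -1.

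Cysteine-rich secreted peptides as a wider class were hardly measured. Of 85 genes with low-molecular-weight cysteine-rich in their names or synonyms, 1 was measured by name. This was LCR26, with ratios of 0.12, -0.95, 0.42 and 0.20 on arrays 1 to 4 (mean -0.05 ± 0.24, SE, limma adjusted p = 0.894). A further 2 probes listing several genes, all of this class, had a median of -0.09, and 0 of the 2 passed the threshold. Of the 11 genes with lipid transfer protein in their names or synonyms, 0 were measured by name. The words self-incompatibility protein S1 were found in the names or synonyms of 0 genes. Gene descriptions were not searched, so these counts do not give the size of either family.

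The measured neighbours of EC1.5 had lower ratios than EC1.5. As EC1.5 was chosen with its ratio known and 1.81% of named genes had a higher mean, that order is no separate result. Among the 5 protein-coding genes on either side of it in the TAIR10.1 gene order, 4 were measured by name, with means between -2.02 and 0.17. AT5G64690, the third gene to one side, fell to -2.02 ± 0.50 (SD, n = 4 arrays, limma adjusted p = 0.00281), and AT5G64730, next to EC1.5, was at 0.13 and not past the threshold (limma adjusted p = 0.496). AT5G64680 was at 0.17 (limma adjusted p = 0.385) and ABR1 at -0.98 (limma adjusted p = 0.0596), neither past it. Thus 1 of the 4 was called, where 8.41% of all named genes were called lower and 9.09% higher. Of the 10 genes around EC1.1, 0 were measured by name. EC1.2 and EC1.3 have consecutive locus numbers (AT2G21740 and AT2G21750), and no probe names either alone.

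Genes with the most similar ratios were sought by the root-mean-square difference over the 4 arrays, among 5143 other named genes measured on all of them. The nearest to EC1.1 was AT4G20800, at a root-mean-square difference of 0.18, with ratios of 1.095, 1.19, 1.23 and 1.88 on arrays 1 to 4. AT4G32090 followed at 0.19, then AT1G30795 at 0.32, AT5G53720 at 0.34 and AT3G56610 at 0.34. Their mean ratios lay between 1.27 and 1.57, and each had its highest value on array 4, as EC1.1 did. As these genes were picked for closeness to EC1.1 on the same arrays, that likeness is no separate result.

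The nearest to EC1.5 was AT1G56120, at a root-mean-square difference of 0.20, with ratios of 1.07, 1.15, 0.44 and 1.03. AT4G12270 followed at 0.21, then AT5G44570 at 0.23, AT3G30460 at 0.24 and AT4G24700 at 0.24. Their means lay between 0.86 and 1.05, and all 5 had their lowest value on array 3, as EC1.5 did. For AT5G44570, arrays 3 and 1 hardly differed, at 0.824 and 0.828. These genes too were picked for closeness on the same arrays, so the shared low array is no separate result. EC1.1 and EC1.5 were less alike than either was with its 5 nearest genes, with a root-mean-square difference of 0.59. EC1.5 was the nearest but 30 to EC1.1, at rank 31, and EC1.1 was at rank 295 from EC1.5. These ranks describe 4 arrays and share the arrays' own offsets.

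**Figure D5:**
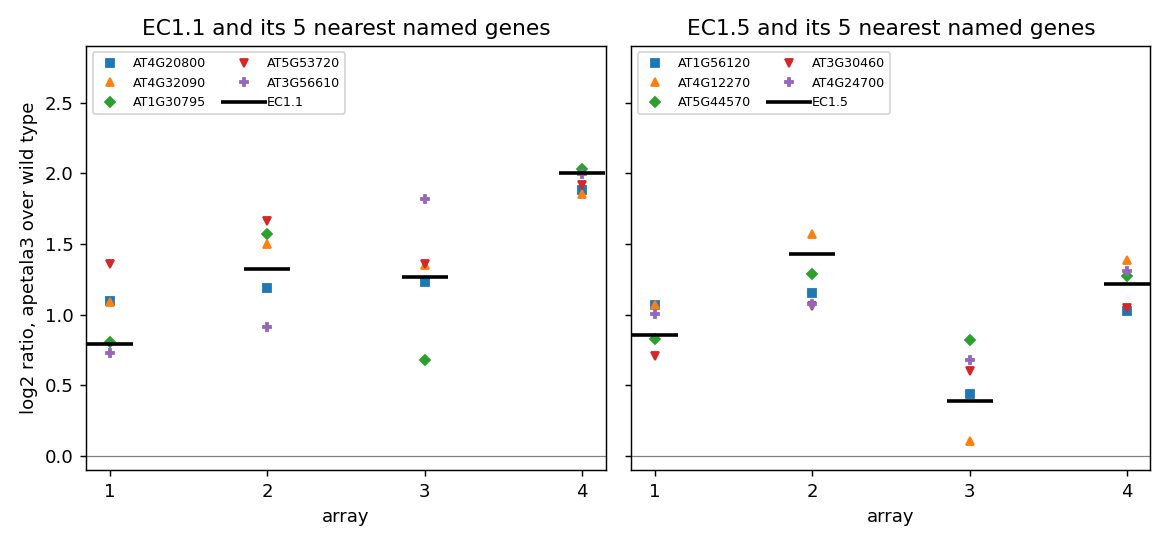
Log2 ratios of apetala3 over wild type (y axis) on arrays 1 to 4 (x axis) for EC1.1 (left, black bars) and EC1.5 (right, black bars), each with the 5 named genes of most similar ratios (symbols). EC1.1 and its nearest genes are highest on array 4, and EC1.5 and its nearest genes are lowest on array 3. The genes were chosen by closeness to these same values.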

How the data were processed

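The deposited values are log2 ratios between an array's channels, and the authors processed and normalized them as in an earlier publication, per the labels. For the scanner, background correction and centring, the sources used here say nothing. The log2 scale was read from the values, which end at the log2 of 100 on either side. The sign of arrays 1 and 3 was turned, so that each array reads apetala3 over wild type with channel 2 as the likely numerator. Values above 6.6438 in absolute size were treated as not measured. Of 26474 gene probes, 5784 list 1 gene, 5756 of them matched to TAIR10.1 loci by gene ID, 7497 list several and 13193 list none. Probes of a gene were averaged.

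The mean ratio of each of 25588 genes and unnamed probes with 3 or more measured arrays was compared with 0 by limma 3.58.1 (R 4.3.3), and p-values were adjusted by Benjamini-Hochberg at a threshold of 0.05. A second fit held the channel orientation as a term. The smallest p an exact sign-flip test of 4 arrays allows is 0.125. The procedure was tested in 10 runs of simulated data with 200 known changes each. It recovered 50% of log2 changes of size 1 and 85.7% of those of size 2, with 4.49% of calls false. A gene not past the threshold may therefore still have changed.

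The members and lists were chosen with earlier results of these data known. Genes named were EC1.1 and EC1.5, up to 3 called members of each list (otherwise the 2 largest by absolute mean), and the 5 named genes of smallest root-mean-square difference from each member. ATA20, EMS1 and the neighbouring genes were added so that the measured members of a list or region are complete. Alternatives covered centring, limit values, array weights, channel orientation, the channel term, single probes, the minimum number of arrays and leaving out each array.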

Additional observations from a re-analysis of the deposited data

Results flagged for a closer look

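Among 27 genes and probes checked for 1 array lying far from the other 3, 2 were found, where chance gives about 1.35. AGL61 had 1.81 on array 1, against 0.35 as the next highest and 0.07 as the lowest. FER had -0.0025 on array 2, with the other 3 arrays at 0.07. Neither EC1.1 nor EC1.5 had such an array.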

How the results depend on the processing

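The EC1.1 mean moved by less than its SD between arrays under centring on each array's median (1.24) and array weights (1.19). It was 1.03 with the mutant in channel 1 only and 1.66 in channel 2 only, and without 1 array in turn it ranged from 1.13 to 1.53. EC1.5 did likewise, at 0.87 with centring, 0.94 with array weights, and 0.82 to 1.17 without 1 array. Limit values and single probes could not change either mean, as each gene has 1 probe and no value at the limit. With the sign turned, an alternative chosen after seeing the data, the means were -1.34 and -0.97. The orientation differences of both genes did not pass the threshold with centring or with limit values kept. The counts of genes and probes called in all moved more. Higher calls numbered 2158, against 1065 with centring, 1430 with limit values kept, 3535 with array weights, 1430 with the channel term, 247 at least 2-fold, and 447 and 78 with the mutant in channel 1 or 2 only. Lower calls numbered 2579, against 1657 at least 2-fold and 1634 and 795 for the same orientations. Without 1 array, higher calls ranged from 282 to 2046 and lower calls from 1367 to 2490, with the fewest of both without array 1. The cause was not tested.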
